A study of Mus musculus with 4 samples.

Results

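A set of 10 genes of the Wnt pathway was followed through the cell types of the E14.5 mouse ventricle, with and without Ets1 in the endothelium. They are the Wnt ligands Wnt2, Wnt4, Wnt5a and Wnt11, the R-spondins Rspo1 and Rspo3, the secreted antagonists Sfrp1, Sfrp2 and Dkk3, and the target gene Axin2. Their rows were found by symbol, as 10 of the 32285 gene rows in each count matrix, and all 10 were present in all 4 libraries. The study made single-cell RNA libraries of 2 control samples (Tie2Cre;Ets1 fl/+) and 2 Ets1 eKO samples (Tie2Cre;Ets1 fl/fl). Each sample pooled the ventricles of 3 embryos at embryonic day 14.5 on a C57BL/6 background, with embryos of both sexes taken without typing their sex. Control embryos thus also carried Cre and a floxed Ets1 allele. Tie2Cre acts in all endothelium and in cells that descend from it, among them the mesenchyme of the endocardial cushions, so deletion was not limited to cells that are endothelial at this stage.

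Wnt ligands are lipid-modified secreted proteins that bind Frizzled receptors and, in the canonical branch, stabilize beta-catenin, which then acts with TCF and LEF factors on target genes. R-spondins strengthen this signal by protecting Frizzled receptors from removal, secreted Frizzled-related proteins (Sfrp) bind ligands outside the cell, and Axin2 is a target that feeds back as an inhibitor. In the heart the pathway is known for roles in the growth of the compact myocardium, in the endocardial cushions that form valves and in the atrioventricular canal.

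After filters, 38003 cells remained, with 10311 and 6816 cells in control replicates 1 and 2 and 8560 and 12316 in Ets1 eKO replicates 1 and 2. Median depth was 8736, 8591.5, 8250 and 5310.5 unique molecular identifiers (UMIs) per cell in the same order, the lowest being Ets1 eKO replicate 2. Library pairs shared 19 to 47 cell barcodes. Cells were sorted into classes by marker lists that held none of the 10 genes, and each class is called by its list with the ending "-like". The classes held 16515 cardiomyocyte-like, 4327 mural endocardial-like, 278 valve endocardial-like, 1410 coronary endothelial-like, 1601 Tcf21-type fibroblast-like, 3568 cushion mesenchyme-like, 340 vessel wall-like, 752 epicardial-like and 655 immune-like cells. At least 90.9% of the cells of a class lay in clusters of the same name, except for vessel wall-like cells, with 59.7%. The valve endocardial cluster was larger than its gated class, with 1136 cells, of which 263 were in both. Subclasses of cardiomyocytes were less sharply set, with 53.9% of compact, 41.0% of trabecular and 41.2% of AV canal cells in clusters of the same name. Levels are in CPM, the UMIs of a gene per 1000000 UMIs of that class in a library, and were compared between classes for a gene but not between genes.

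Ets1 (chromosome 9, 32636221 to 32757820, plus strand, GRCm38) was lower in Ets1 eKO in each endothelial class. Its level in mural endocardial-like cells was 286 and 267 CPM in controls against 122 and 93.5 CPM in Ets1 eKO (log2 fold change -1.31, SE 0.15, adjusted p = 0.000263). Fold changes and adjusted p-values here and below are from edgeR's quasi-likelihood test over all genes of a class, with Benjamini-Hochberg adjustment and n = 2 libraries per group. The log2 fold change was -1.13 (SE 0.17, adjusted p = 0.00617) in coronary endothelial-like and -1.10 (SE 0.22, adjusted p = 0.0439) in valve endocardial-like cells, where the call was lost with DESeq2 (adjusted p = 0.304), with the replicate block (0.0512) and under several other alternatives. In cushion mesenchyme-like cells Ets1 was at 83.7 and 74.8 CPM in controls against 45.1 and 41.6 CPM in Ets1 eKO, a difference that missed the threshold of 0.05 (log2 fold change -0.79, SE 0.13, adjusted p = 0.0564).

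The members differed in where they were highest, and most of the highest levels lay in the endocardium, the cushions or the epicardium. Wnt4, a ligand known from kidney and gonad development, was highest in valve endocardial-like cells, at a mean of 450 CPM (SD 171, n = 4 libraries), then in mural endocardial-like cells at 108 CPM (SD 13.6), and no library of any other main class passed 10.5 CPM. Wnt2, a canonical ligand, was highest in the same pair of classes, at 31.1 CPM (SD 25.4) in valve and 20.2 CPM (SD 8.09) in mural endocardial-like cells over the 4 libraries, with epicardial-like cells next at 9.49 CPM, and the ranges of these neighbours overlapped. In the control libraries alone the pair had no such order, with means of 14.5 CPM in valve and 15.3 CPM in mural endocardial-like cells. Wnt4 in coronary endothelial-like cells was at 0.940 to 4.19 CPM, so within the endothelium both ligands were at their lowest there.

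Wnt5a, which mostly signals without beta-catenin, was highest in epicardial-like cells at 90.1 CPM (SD 15.2), apart from cushion mesenchyme-like cells at 42.1 CPM. Wnt11, another ligand of that branch, had no single leading class, with 17.5 CPM in mural endocardial-like, 16.6 CPM in Tcf21-type fibroblast-like and 14.3 CPM in cushion mesenchyme-like cells, whose ranges overlapped. It was at 2.79 CPM in cardiomyocyte-like, 1.70 CPM in coronary endothelial-like and 0.677 CPM in immune-like cells. Rspo1 was almost limited to epicardial-like cells, at 356 CPM (SD 26.0), 73.8 times the level in Tcf21-type fibroblast-like cells, the next class. Among cells thinned to 2000 UMIs, 44.8% to 52.4% of epicardial-like cells of a library held an Rspo1 UMI, against 0% to 0.676% of immune-like cells, a class that should lack the gene.

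Rspo3 was highest among the main classes in cushion mesenchyme-like cells, at 279 CPM (SD 41.8), and reached 921 to 982 CPM in the small group of cardiomyocytes of the atrioventricular (AV) canal list. Sfrp1 was highest in cardiomyocyte-like cells at 383 CPM (SD 24.7), then in Tcf21-type fibroblast-like cells at 283 CPM and epicardial-like cells at 166 CPM. Each of the first pair stood apart from the next class, while epicardial-like cells overlapped cushion mesenchyme-like cells. Sfrp2 was highest in cushion mesenchyme-like cells at 324 CPM, with an SD of 243 over libraries of both groups, and its range overlapped that of Tcf21-type fibroblast-like cells, the next class at 142 CPM. In Ets1 eKO the levels of this pair of classes were close, at 137 and 123 CPM in cushion mesenchyme-like against 112 and 107 CPM in Tcf21-type fibroblast-like cells. Dkk3, a secreted relative of the Dickkopf antagonists, was 12.5 times higher in cushion mesenchyme-like cells, at 196 CPM (SD 50.3), than in the next class. Axin2 was also highest there, at 30.8 CPM (SD 7.57), apart from valve endocardial-like cells at 16.3 CPM, and had no UMI in vessel wall-like or immune-like cells.

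On GRCm38 the other members lie on chromosome 14 from 28504750 to 28527448 (Wnt5a, plus strand), chromosome 7 from 98835112 to 98855195 (Wnt11, plus) and from 112116017 to 112159057 (Dkk3, minus), chromosome 4 from 124986430 to 125009099 (Rspo1, plus), chromosome 10 from 29452416 to 29535867 (Rspo3, minus), chromosome 8 from 23411502 to 23449632 (Sfrp1, plus) and chromosome 11 from 108920349 to 108950783 (Axin2, plus). All 10 are protein-coding genes.

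**Figure D1:**
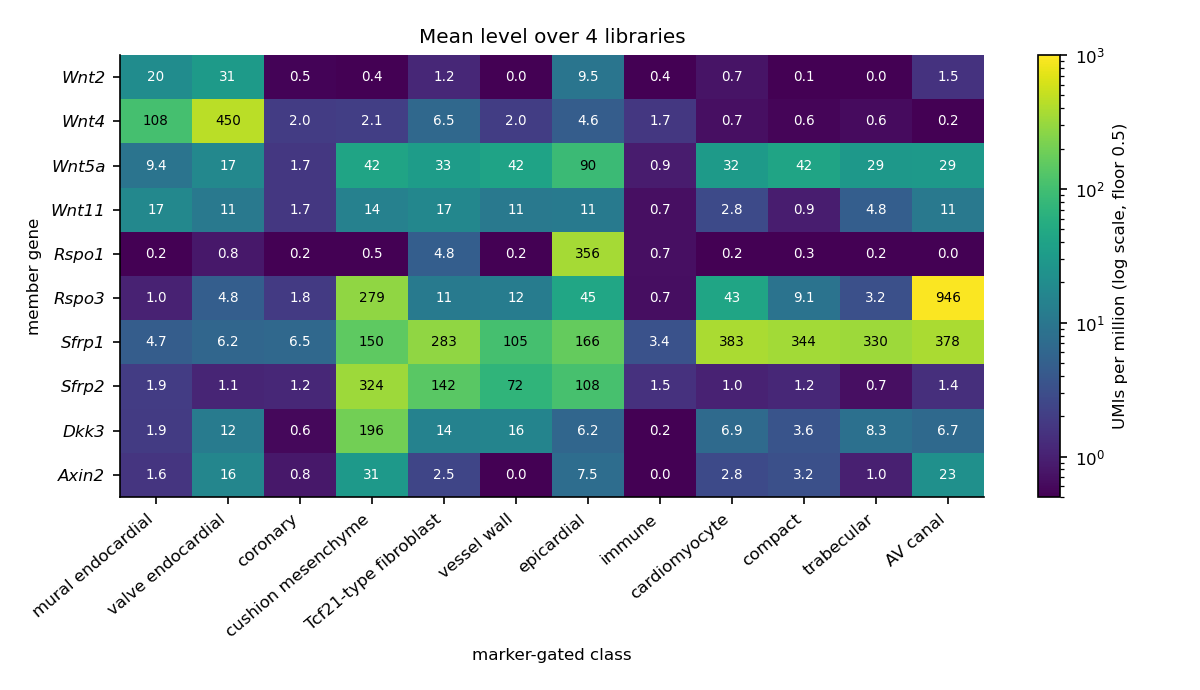
Mean level of each of the 10 genes (rows) in each marker-gated class (columns) over 4 libraries, in CPM on a logarithmic colour scale with a floor of 0.5. Rspo1 stands out in epicardial cells at 356, Wnt4 in valve endocardial cells at 450, and Rspo3 in atrioventricular canal cardiomyocytes at 946.

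The comparison of Ets1 eKO with control asks which of these signals change when the endothelium loses Ets1. The members were chosen with earlier results of these data known, so their counts beside those of all genes are a description and no test. Of 90 combinations of a member and a main class, 50 passed the filter on low counts, and 1 of them was past the threshold, with 18 at an unadjusted p under 0.05. Members with such a p in edgeR's test numbered 5 of 8 in cushion mesenchyme-like cells, where 1502 of 13152 genes had one, 3 of 9 in cardiomyocyte-like (1994 of 15978), 3 of 9 in Tcf21-type fibroblast-like (786 of 11878), 2 of 2 in valve endocardial-like (750 of 7718), 2 of 8 in epicardial-like (642 of 9954) and 1 of 5 in vessel wall-like cells (511 of 8648). The combination past the threshold was Sfrp2 in cushion mesenchyme-like cells, where 8 of 10 members passed the filter and 0.35% of all genes tested were past the threshold. In mural endocardial-like cells, where 3.56% of genes were past it, none of the 8 members that passed the filter was, and 2 had an unadjusted p under 0.05, as had 2727 of 13038 genes in all. Of the 8 members tested in cushion mesenchyme-like cells, 3 were higher and 3 lower in Ets1 eKO without overlap of the libraries, as were 14.0% and 30.4% of all genes. In mural endocardial-like cells 2 of 8 were higher and 0 lower (20.1% and 32.0% of genes), in valve endocardial-like cells 2 of 2 were higher and 0 lower (16.9% and 22.6%), and in coronary endothelial-like cells the 1 member tested, Sfrp1, overlapped (14.0% and 31.4%). In Tcf21-type fibroblast-like cells 2 of 9 were higher and 4 lower (11.2% and 28.0%), in epicardial-like cells 1 of 8 was higher and 2 lower (12.7% and 24.9%), in vessel wall-like cells 0 of 5 stood apart (11.7% and 26.9%), and in cardiomyocyte-like cells 1 of 9 was higher and 2 lower (11.2% and 38.3%). Wnt2 in valve endocardial-like and in cardiomyocyte-like cells passed the filter with the help of its higher Ets1 eKO levels. Its part in the counts of these classes is thus a description. No member passed the filter in immune-like cells. Overlap was read on CPM, which are scaled by total UMIs alone. Fitted on that scale, the median log2 fold change over all genes was below 0 in each main class, from -0.11 to -0.020. In cardiomyocyte-like cells it was -0.10, against 0.01 in the main fit, so overlap leaned to the lower side. The share of genes past the threshold was 0.0% in Tcf21-type fibroblast-like and vessel wall-like cells, 0.0502% in epicardial-like and 0.0115% in immune-like cells.

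**Figure D2:**
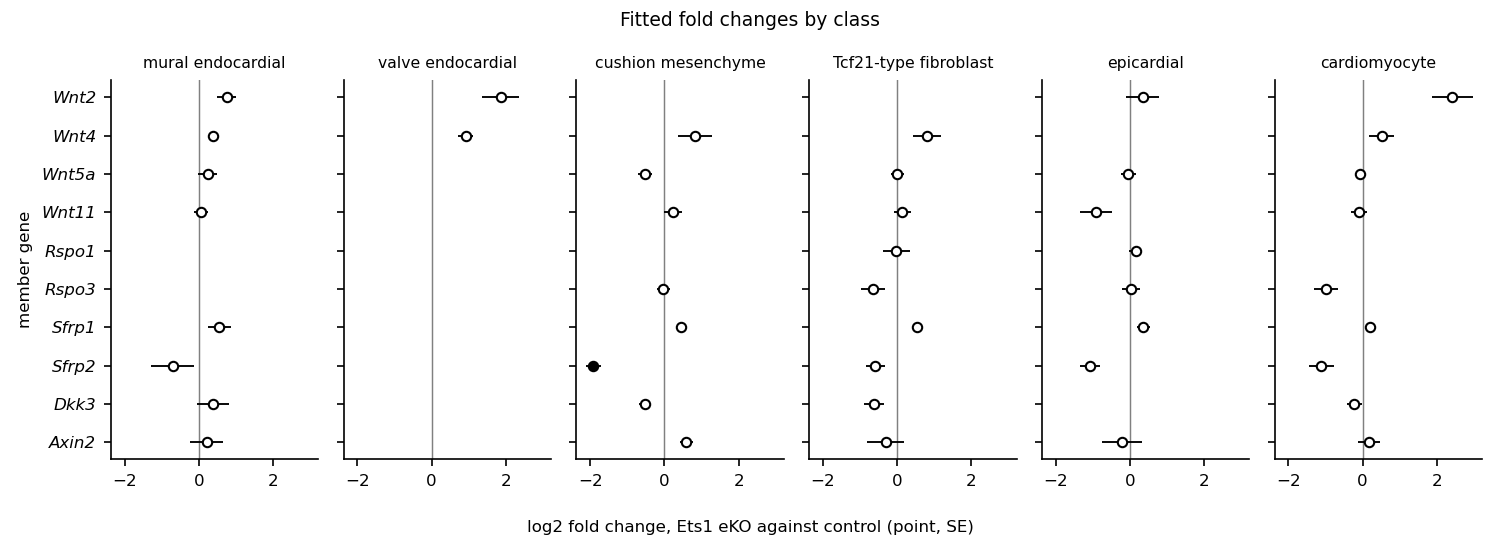
Fitted log2 fold change (points) with its standard error (lines), Ets1 eKO against control, for each gene that passed the filter on low counts in 6 classes. The filled point, Sfrp2 in cushion mesenchyme at -1.91, is past the threshold, and the open points are not.

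Sfrp2, which binds Wnt ligands and also acts on matrix-processing enzymes, lies on chromosome 3 from 83766321 to 83774316 (plus strand, GRCm38). The bases just before its annotated start are shown because Ets1 is a transcription factor of the ETS family, whose members bind DNA around a GGAA core. Capitals mark that core or its reverse complement TTCC in the window chr3:83766071-83766320 (plus strand, GRCm38.p6, RefSeq).

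Sfrp2: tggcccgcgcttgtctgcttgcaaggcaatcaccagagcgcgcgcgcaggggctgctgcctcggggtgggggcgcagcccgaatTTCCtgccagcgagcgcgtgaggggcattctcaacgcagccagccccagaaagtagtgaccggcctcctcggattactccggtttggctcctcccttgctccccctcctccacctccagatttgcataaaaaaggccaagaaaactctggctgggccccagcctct

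The window of 250 bases held 1 match, and 93.4% of 32851 RefSeq windows of this length held at least 1. The longer form CCGGAA, read on both strands, had 0 matches in it and was found in 12.0% of windows.

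Sfrp2 was at 400 and 635 CPM in the cushion mesenchyme-like cells of the control libraries and at 137 and 123 CPM in Ets1 eKO. Both Ets1 eKO libraries were thus below both controls, and the controls differed from each other more than the Ets1 eKO libraries did. The log2 fold change was -1.91 (SE 0.21, adjusted p = 0.0131). It ranged from -2.20 to -1.56 when each library was left out in turn, and the call was lost when either Ets1 eKO library was left out (adjusted p = 0.12 without replicate 1 and 0.151 without replicate 2).

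The share of cushion mesenchyme-like cells with an Sfrp2 UMI, after thinning to 2000 UMIs, was 28.0% of 950 cells and 45.6% of 1112 cells in controls (exact binomial 95% intervals 25.2% to 31.0% and 42.6% to 48.6%). In Ets1 eKO it was 16.3% of 748 cells and 16.6% of 758 cells (13.7% to 19.2% and 14.0% to 19.5%), and immune-like cells held one in 0% to 1.23% of cells. Intervals cover counting error only, and the exact permutation test of the 4 libraries gave p = 0.333, the smallest that 2 against 2 libraries allow. Of all cells, 9.21% and 16.3% were cushion mesenchyme-like in the control libraries, against 8.74% and 6.15% in Ets1 eKO.

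Cushion mesenchyme-like cells fell into 3 clusters of at least 5% of them, and Sfrp2 differed between these clusters by a wide margin. The clusters were made without the 10 genes, and the split was added after the data had been seen. They were made on all libraries together, with no correction between libraries, so other genes that differ between the groups could help to define them. The shares of clusters, the levels within them and the values at fixed shares below are thus not independent of the group. Cluster A (1869 cells) was led by Gal, Sntg1 and Col4a4, cluster B (1028 cells) by the matrix genes Abi3bp, Tnc and Aspn and by Cntn5, and cluster C (545 cells) by genes of dividing cells, among them Hist1h1b, Top2a and Cenpf. Cluster B held 33.5% and 48.0% of the cushion mesenchyme-like cells in controls but 13.1% and 10.3% in Ets1 eKO, and cluster A 50.3% and 36.1% against 65.9% and 65.6% (exact permutation p = 0.333, the smallest possible, for each).

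In cluster A Sfrp2 was at 70.8 and 68.5 CPM in controls against 78.9 and 70.4 CPM in Ets1 eKO (log2 fold change 0.16, SE 0.15, adjusted p = 0.845, where 0.034% of genes were past the threshold). In cluster B it was at 1026 and 1178 CPM against 677 and 668 CPM, with no overlap but short of the threshold (log2 fold change -0.64, SE 0.16, adjusted p = 0.151). In cluster C it was at 270 and 470 CPM against 39.8 and 66.5 CPM. That difference was past the threshold (log2 fold change -2.78, SE 0.28, adjusted p = 0.00162), as it was with any library left out (-3.14 to -2.34), among 0.212% of genes in cluster C. When the level within each cluster was weighted in every library by the mean share of the control libraries' UMIs, not cells, that each cluster held, Sfrp2 came to 464 and 561 CPM in controls against 291 and 290 CPM in Ets1 eKO. The ratio of the means was then 0.566, against 0.238 with each library's own UMI shares.

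Some of the genes that lead cluster B were also lower in the dividing cells of cluster C in Ets1 eKO, and Aspn, at 17.8 and 30.0 CPM in controls against 18.3 and 12.8 CPM, overlapped. Abi3bp was at 84.2 and 87.3 CPM in controls against 34.2 and 10.5 CPM in Ets1 eKO, and Tnc, the matrix protein tenascin C, at 80.6 and 113 CPM against 27.1 and 23.3 CPM. Top2a, a topoisomerase of dividing cells, ranged from 921 to 993 CPM over the 4 libraries in that cluster. The part of such differences within clusters in the result for Sfrp2 was not tested.

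**Figure D3:**
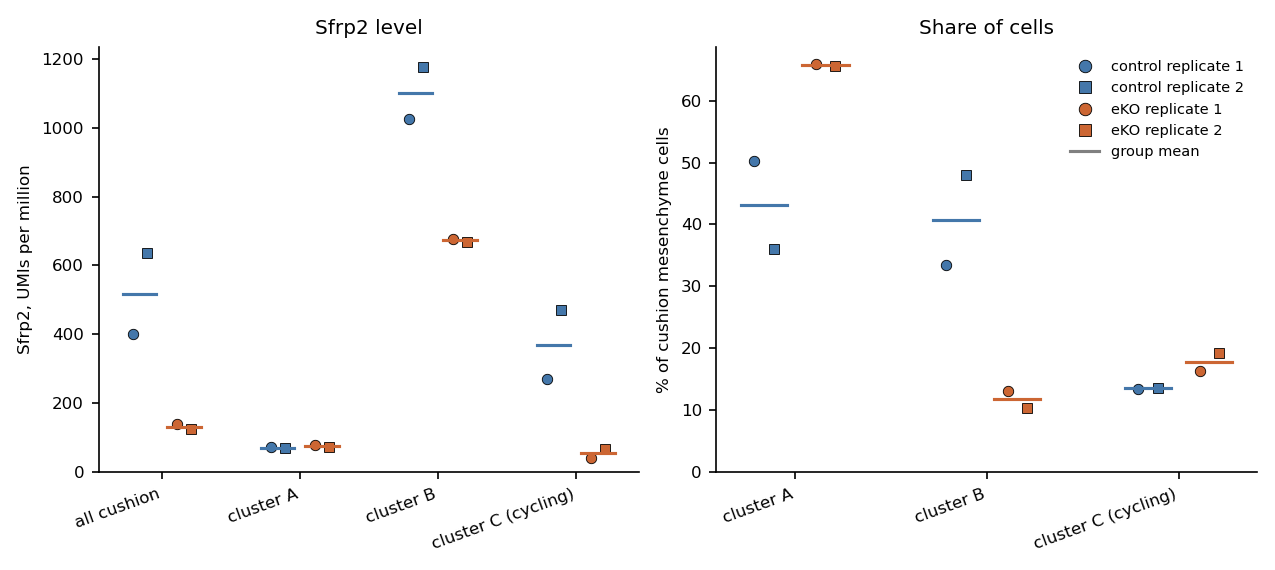
Left, Sfrp2 in CPM in all cushion mesenchyme cells and in their 3 clusters; right, the share of cushion mesenchyme cells in each cluster, in percent. Points are libraries and lines group means, and cluster A spans 68.5 to 78.9 while cluster C falls from 270 and 470 in controls to 39.8 and 66.5 in Ets1 eKO.

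Outside the cushions, the level of Sfrp2 was highest in control replicate 2 in the epicardial-like, fibroblast-like, vessel wall-like and cardiomyocyte-like classes. Epicardial-like cells held 87.0 and 212 CPM in controls against 67.1 and 66.0 CPM in Ets1 eKO (log2 fold change -1.08, SE 0.26, adjusted p = 0.174). That value was -0.32 without control replicate 2, and -1.60 and past the threshold without control replicate 1 (adjusted p = 2.24e-07). It was also past it with no filter on low counts (-1.05, adjusted p = 0.000327) and with the replicate block (-0.98, adjusted p = 0.0139). Tcf21-type fibroblast-like cells held 115 and 235 CPM against 112 and 107 CPM (-0.59, adjusted p = 0.750), and the value was 0.00 without control replicate 2 and past the threshold at -1.0032 without control replicate 1 (adjusted p = 0.0328). Vessel wall-like cells held 7.67 and 256 CPM against 15.1 and 10.5 CPM, and there the log2 fold change of -3.08 (adjusted p = 0.814) turned to 0.88 without control replicate 2 and was past the threshold at -4.05 without control replicate 1 (adjusted p = 8.37e-08). It was also past it at -3.07 with no filter on low counts (adjusted p = 6.69e-16) and at -2.01 with the replicate block (adjusted p = 0.000517). In cardiomyocyte-like cells the gene was near its lowest, at 1.06 and 1.87 CPM in controls against 0.710 and 0.499 CPM in Ets1 eKO, past the threshold with no filter on low counts (-1.11, adjusted p = 0.0126). Immune-like cells held it at 0 to 3.35 CPM, a range that overlapped these values. The part of RNA from outside the cell in so low a level was not tested.

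No difference in Sfrp1 was past the threshold in a main class. In cushion mesenchyme-like cells it was at 128 and 133 CPM in controls against 161 and 177 CPM in Ets1 eKO (log2 fold change 0.45, SE 0.12, adjusted p = 0.198), and in Tcf21-type fibroblast-like cells at 238 and 237 CPM against 335 and 321 CPM (0.54, SE 0.14, adjusted p = 0.641). Neither pair of groups overlapped and neither passed the threshold. Of the 3 cushion clusters, cluster B alone was past it, where Sfrp1 was at 136 and 126 CPM in controls against 243 and 238 CPM in Ets1 eKO (0.96, SE 0.17, adjusted p = 0.0330, among 0.131% of genes), and where Sfrp2 was on the lower side. The call in cluster B was lost without control replicate 2 (adjusted p = 0.0627), Ets1 eKO replicate 1 (0.277) or Ets1 eKO replicate 2 (0.0598).

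In compact and trabecular cardiomyocytes Sfrp1 was at 326 and 326 CPM and at 305 and 306 CPM in controls, and at 350 and 376 CPM and at 348 and 362 CPM in Ets1 eKO. The groups did not overlap in either layer, as for 12.0% of genes higher and 32.5% lower in compact and 13.3% higher and 35.8% lower in trabecular cells, and neither difference was past the threshold (adjusted p = 0.565 and 0.388, where 0.0% and 0.0974% of genes were). In both layers together with all other cardiomyocytes the groups overlapped, at 357 and 387 CPM against 374 and 415 CPM.

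Dkk3 in cushion mesenchyme-like cells was at 226 and 247 CPM in controls against 175 and 136 CPM in Ets1 eKO (log2 fold change -0.53, SE 0.15, adjusted p = 0.217), past the threshold with no filter on low counts (adjusted p = 0.0108). Within clusters A and B the groups overlapped, at 138 and 130 CPM against 154 and 126 CPM in A and at 459 and 391 CPM against 496 and 435 CPM in B. With the control UMI shares of the clusters in every library the ratio of the means was 1.04, against 0.667 with the libraries' own shares. The part of the cluster makeup in this result was not tested. For Sfrp1, Rspo3 and Wnt5a in these cells the ratio was 1.47, 0.842 and 0.711 with the control shares. With the libraries' own shares it was 1.31, 0.939 and 0.652, so Sfrp1 and Rspo3 moved away from equal levels.

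Axin2, the readout of canonical signalling, did not pass the threshold in cushion mesenchyme-like cells. It was at 27.2 and 24.0 CPM in controls against 41.4 and 30.8 CPM in Ets1 eKO, which did not overlap (log2 fold change 0.59, SE 0.18, adjusted p = 0.249), and the value fell to 0.33 without Ets1 eKO replicate 1 and was past the threshold at 0.57 with no filter on low counts (adjusted p = 0.0337). Its level was lowest in cluster B, at 4.22 to 12.3 CPM, and within the dividing cells of cluster C it was at 32.8 and 27.4 CPM against 57.3 and 44.3 CPM (0.84, SE 0.24, adjusted p = 0.268). With the control UMI shares the libraries overlapped and the ratio of the means was 1.10, against 1.43 with own shares. In valve endocardial-like cells the groups overlapped, at 22.3 and 13.6 CPM against 16.4 and 12.9 CPM, as they did in AV canal cardiomyocytes.

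Rspo3 in cushion mesenchyme-like cells did not separate the groups, at 298 and 283 CPM in controls against 317 and 220 CPM in Ets1 eKO (log2 fold change -0.03, SE 0.18, adjusted p = 0.964). Wnt5a there was at 40.4 and 60.8 CPM against 33.5 and 33.7 CPM (-0.52, SE 0.19, adjusted p = 0.348), lower in both Ets1 eKO libraries without passing the threshold. The value was -0.21 without control replicate 2 (adjusted p = 0.998) and past the threshold at -0.77 without control replicate 1 (adjusted p = 0.0143) and at -0.54 with no filter on low counts (adjusted p = 0.0332).

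Wnt4 and Wnt2 had their highest levels in valve and mural endocardial-like cells, classes in which Ets1 was lower in Ets1 eKO. Wnt4 lies on chromosome 4 from 137277489 to 137299726 (plus strand) and Wnt2 on chromosome 6 from 17988940 to 18030585 (minus strand, GRCm38). The bases between the start of the RefSeq window and the annotated start, chr4:137277385-137277488 and chr6:18030586-18030695, are shown for the same reason as for Sfrp2, with GGAA and TTCC in capitals.

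Wnt4: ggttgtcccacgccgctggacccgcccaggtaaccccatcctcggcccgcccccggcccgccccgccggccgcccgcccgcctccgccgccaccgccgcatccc

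Wnt2: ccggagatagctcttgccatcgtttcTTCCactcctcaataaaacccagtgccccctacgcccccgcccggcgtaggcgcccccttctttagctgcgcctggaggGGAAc

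Wnt4 had 0 matches in 104 bases and Wnt2 had 2 in 110 bases, where 69.0% and 71.1% of windows of these lengths held at least 1. CCGGAA was in neither.

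In valve endocardial-like cells Wnt4 was at 314 and 321 CPM in controls against 675 and 489 CPM in Ets1 eKO. The groups stood apart, with Ets1 eKO higher, and the difference missed the threshold (log2 fold change 0.92, SE 0.20, adjusted p = 0.0700, where 0.376% of genes were past it). It was past the threshold at 1.14 without Ets1 eKO replicate 2 (adjusted p = 0.00522) and at 0.90 with no filter on low counts (0.00165), and not with any other library left out (0.65 to 0.95). Mural endocardial-like cells held it at 94.4 and 97.2 CPM against 119 and 119 CPM (0.37, SE 0.12, adjusted p = 0.117), again without overlap, as for 20.1% of genes of that class in this direction. After thinning, 9.82% and 12.0% of mural endocardial-like cells held a Wnt4 UMI in controls and 15.4% and 14.9% in Ets1 eKO, against 0% to 1.23% of immune-like cells.

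The place of the higher Wnt4 depended on how endocardial cells were divided. The valve endocardial cluster held 1136 cells against 278 in the gated class. When classes were taken from clusters, mural endocardial cells held 55.1 and 65.4 CPM in controls against 83.5 and 90.7 CPM in Ets1 eKO, which was past the threshold (log2 fold change 0.60, SE 0.14, adjusted p = 0.0484), while valve endocardial cells held 675 and 544 CPM against 662 and 595 CPM (0.08). The difference between the effects in mural and valve endocardial cells was -0.53 (SE 0.18, adjusted p = 0.274) with gated classes and 0.51 (adjusted p = 0.143) with clusters, so its direction turned. With all endothelial cells other than coronary in 1 class, Wnt4 was at 184 and 173 CPM in controls against 189 and 156 CPM in Ets1 eKO, which overlapped (0.01, SE 0.13, adjusted p = 0.971, where 2.18% of genes were past the threshold).

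Wnt2 in valve endocardial-like cells was at 20.4 and 8.49 CPM in controls against 67.2 and 28.3 CPM in Ets1 eKO. The groups did not overlap, on 11, 5, 41 and 11 UMIs (log2 fold change 1.85, SE 0.50, adjusted p = 0.149). Wnt2 passed the low-count filter in this class with the help of its higher Ets1 eKO levels. Its test values and their alternatives here are thus given as a description. The log2 fold change was 1.34 without control replicate 2 and 1.00 without Ets1 eKO replicate 1. It was 2.58 without control replicate 1 and 2.28 without Ets1 eKO replicate 2. With no filter on low counts it was past the threshold at 1.83 (adjusted p = 0.00288 in edgeR's test). With clusters the levels were 20.3 and 16.9 CPM against 51.9 and 33.8 CPM, past the threshold (1.24, SE 0.25, adjusted p = 0.0432). Wnt2 in mural endocardial-like cells was at 19.9 and 10.6 CPM against 30.4 and 19.8 CPM, where 1 control and 1 Ets1 eKO library were nearly equal (0.75, SE 0.26, adjusted p = 0.129). There the value was 0.42 and 1.28 when control replicates 2 and 1 were left out in turn and 0.43 without Ets1 eKO replicate 1, and was past the threshold at 1.01 without Ets1 eKO replicate 2 (adjusted p = 0.0419), at 0.76 with no filter on low counts (0.00342) and at 0.79 with the replicate block (0.00225). In all endothelial cells other than coronary the value was 0.86 (SE 0.26, adjusted p = 0.127), so for Wnt2 the direction did not turn with the division of cells. In epicardial-like cells Wnt2 was at 7.83 and 9.51 CPM against 11.2 and 9.43 CPM, which overlapped. The fibroblast genes summed to 1006 and 990 CPM in valve endocardial-like cells of controls and to 1103 and 934 CPM in Ets1 eKO, and 11 or 12 of the 12 were above 0. Their sum in mural endocardial-like cells was higher in both Ets1 eKO libraries, as given below. Its part in the Wnt2 and Wnt4 values of that class was not tested.

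**Figure D4:**
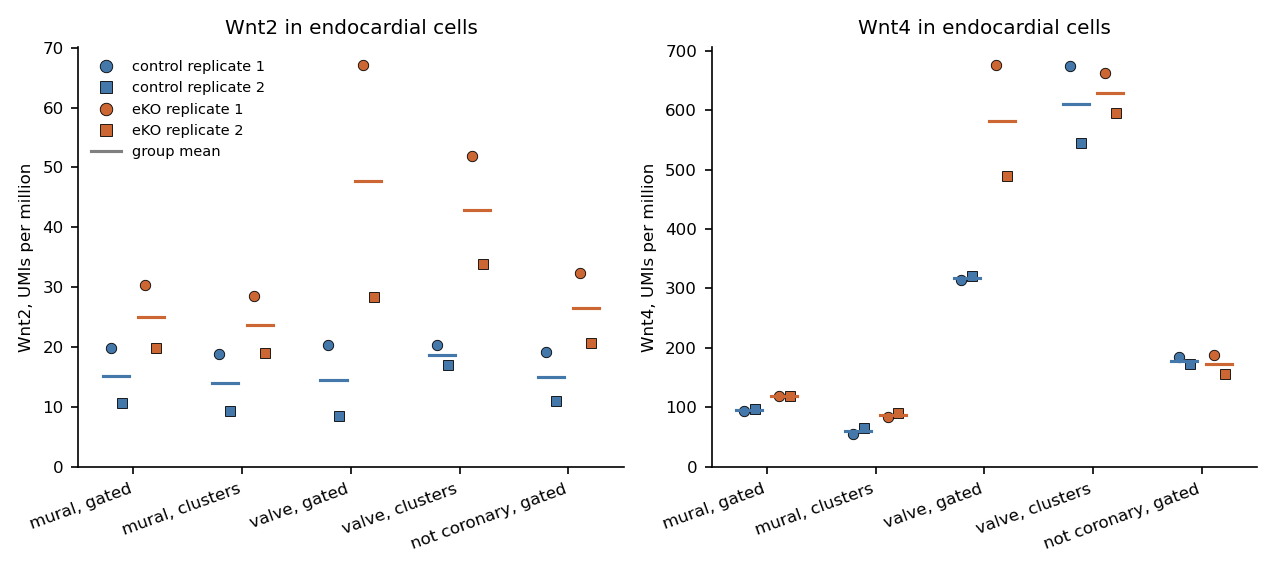
Wnt2 (left) and Wnt4 (right) in CPM in endocardial cells, for classes gated on markers, classes taken from clusters, and all gated endothelial cells other than coronary. Points are libraries and lines group means; in gated valve cells Wnt4 is at 314 and 321 in controls against 675 and 489 in Ets1 eKO, and in valve cells from clusters and in the combined class the groups overlap for Wnt4.

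A difference of the Ets1 eKO effect between endothelial classes can be read only for members that passed the filter in both classes. Between mural and valve endocardial-like cells these were Wnt4 and Wnt2, and neither was past the threshold in edgeR's interaction test (0.656% of all genes were). For Wnt2 the mural minus valve difference was -1.01 (SE 0.46, adjusted p = 0.554). It is given as a description, since Wnt2 passed the filter in valve cells with the help of its higher Ets1 eKO levels. Between mural endocardial-like and coronary endothelial-like cells the 1 such member was Sfrp1 (0.76, SE 0.43, adjusted p = 0.495, where 2.32% of genes were past the threshold), and between coronary and valve cells there was none. The unadjusted p was 0.00674 for Wnt4, 0.0373 for Wnt2 and 0.0816 for Sfrp1, and 1031 of 12499 genes in the mural and valve test had one under 0.05, as had 1595 of 13057 in the mural and coronary test. Wnt11 in mural endocardial-like cells was at 19.3 and 15.7 CPM in controls against 15.8 and 19.1 CPM in Ets1 eKO, which overlapped.

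The epicardium makes R-spondin 1, and its level there was much the same in both groups. Rspo1 was at 361 and 331 CPM in controls against 391 and 343 CPM in Ets1 eKO (log2 fold change 0.15, SE 0.18, adjusted p = 0.908). Wnt5a in epicardial-like cells was at 107 and 80.3 CPM against 98.3 and 74.7 CPM (-0.04, SE 0.20, adjusted p = 0.986). Wnt11 was at 12.2 and 16.9 CPM against 6.15 and 8.65 CPM, lower in both Ets1 eKO libraries (-0.91, SE 0.44, adjusted p = 0.770). Rspo3 was at 51.4 and 41.2 CPM against 51.4 and 37.7 CPM, with no separation.

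In cardiomyocyte-like cells, where 0.0% of genes were past the threshold, Rspo3 was at 35.3 and 83.5 CPM in controls against 30.6 and 24.0 CPM in Ets1 eKO (log2 fold change -0.99, SE 0.33, adjusted p = 0.398). The value was -0.28 without control replicate 2 (adjusted p = 0.982), and past the threshold at -1.48 without control replicate 1 (adjusted p = 0.000114) and at -1.13 without Ets1 eKO replicate 1 (adjusted p = 0.0483). It was also past it with no filter on low counts (-0.99, adjusted p = 1.67e-10) and with the replicate block (-0.88, adjusted p = 0.000187). Cardiomyocytes outside the AV canal and atrial lists held 15.3 and 28.7 CPM against 10.9 and 9.54 CPM (-0.97, adjusted p = 0.404), so part of the level came from the few cells of these lists. Compact cardiomyocytes held 8.37 to 9.79 CPM and AV canal cardiomyocytes 921 and 961 CPM in controls against 921 and 982 CPM in Ets1 eKO (0.07, SE 0.16, adjusted p = 0.919, where 0.0899% of genes were past the threshold). With canal cells taken from clusters the direction turned, to -0.71 (adjusted p = 0.0892). AV canal cells made up 2.37% and 4.44% of cardiomyocyte-like cells in controls and 2.79% and 1.97% in Ets1 eKO.

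Cells of the atrial list (Sln, Nr2f1, Nr2f2 and Myl7) also carried Rspo3, and were taken as a class of their own after the data had been seen. The control libraries held 122 and 164 of them and the Ets1 eKO libraries 117 and 207, or 2.54%, 6.28%, 3.27% and 3.75% of cardiomyocyte-like cells, in libraries labelled as ventricle. Rspo3 in them was at 243 and 473 CPM in controls against 127 and 85.6 CPM in Ets1 eKO, past the threshold (log2 fold change -1.74, SE 0.30, adjusted p = 0.0263), as with any library left out (-2.13 to -1.18).

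Wnt2 in the same cells was at 2.25 and 4.72 CPM in controls against 19.7 and 43.5 CPM in Ets1 eKO. It passed the low-count filter through the Ets1 eKO libraries alone, so its call is given as a description (log2 fold change 3.11, SE 0.49, adjusted p = 0.0204), a call lost at 2.43 when Ets1 eKO replicate 2 was left out (adjusted p = 0.0517) and kept at 2.77 to 3.78 with any other library left out. It rested on 3, 9, 24 and 59 UMIs in 3, 4, 6 and 19 cells. Of all genes in that class 0.712% were past the threshold. The summed level of the 6 genes of the AV canal list in these cells was 615 and 535 CPM in controls against 1258 and 1106 CPM in Ets1 eKO, and that of the 4 atrial genes 11194 and 10171 CPM against 14064 and 12041 CPM. Both sums were higher in each Ets1 eKO library than in either control library, and their part in both results was not tested.

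**Figure D5:**
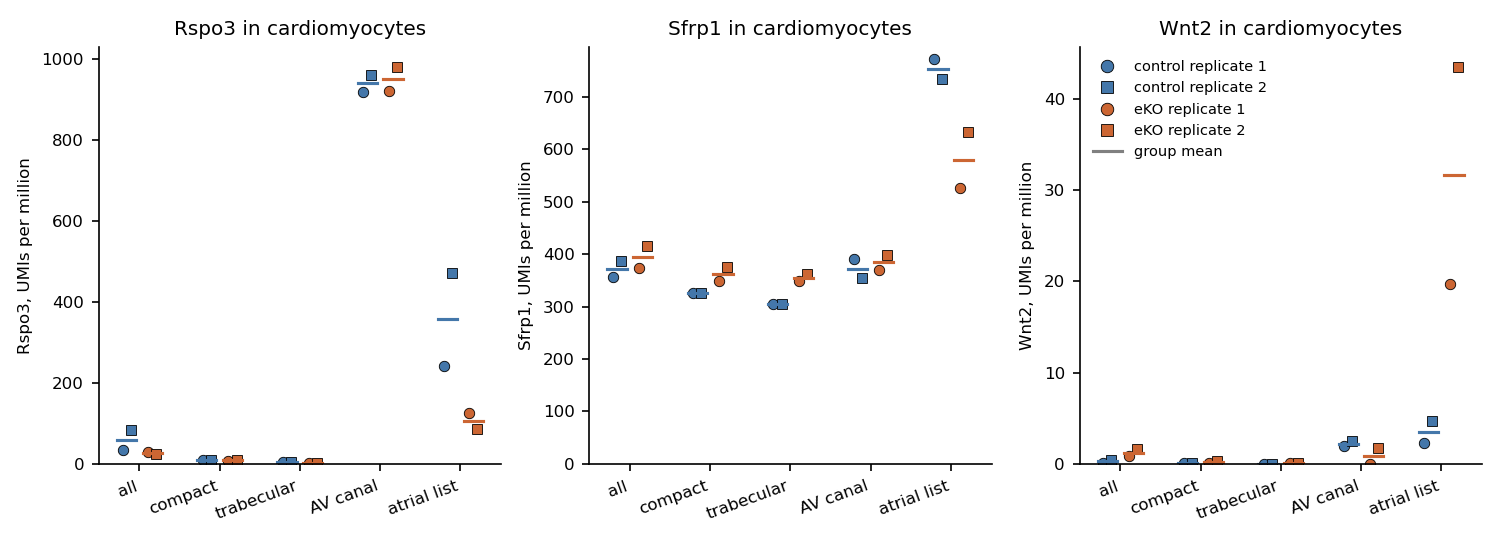
Rspo3, Sfrp1 and Wnt2 in CPM in all cardiomyocytes and in cells of the compact, trabecular, atrioventricular canal and atrial lists. Points are libraries and lines group means; Rspo3 is at 921 to 982 in canal cells of both groups, and in atrial-list cells it is lower and Wnt2 higher in both Ets1 eKO libraries.

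Wnt2 passed the low-count filter over all cardiomyocyte-like cells with the help of its higher Ets1 eKO levels, so its test values are given as a description. It was at 0.128 and 0.418 CPM in controls against 0.835 and 1.58 CPM in Ets1 eKO, on 8, 15, 40 and 73 UMIs (log2 fold change 2.42, SE 0.54, adjusted p = 0.398). Without the AV canal and atrial lists it was at 0.0499 and 0.0915 CPM against 0.349 and 0.294 CPM, in a class with 0.00634% of genes past the threshold, so most of these UMIs came from the cells left out. The value over all cardiomyocyte-like cells was past the threshold with DESeq2 (adjusted p = 0.0488), with no filter on low counts (5.13e-09), with the replicate block (1.09e-06), at 3.32 without control replicate 2 (0.0261) and at 2.85 without Ets1 eKO replicate 1 (0.013), and was 1.67 without control replicate 1 and 1.85 without Ets1 eKO replicate 2.

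Wnt5a in cardiomyocyte-like cells was at 28.9 and 38.6 CPM in controls against 30.4 and 29.0 CPM in Ets1 eKO (log2 fold change -0.06, SE 0.14, adjusted p = 0.851). In compact cardiomyocytes it was at 40.5 and 46.1 CPM against 41.6 and 40.7 CPM. None of the 7 members that passed the filter in compact cardiomyocytes was past the threshold or had an unadjusted p under 0.05, in a class where 0.0% of genes were past it. In trabecular cardiomyocytes 7 members passed the filter and 0 were past the threshold. There 1 had an unadjusted p under 0.05 in edgeR's test, as had 1838 of 13344 genes. The log2 fold change of Sfrp2 in that layer ranged from -2.38 to -1.74 with a library left out, and it was past the threshold under no alternative. Over all cardiomyocyte-like cells the mean of Sfrp2 was 1.03 CPM, against 1.49 CPM in immune-like cells, so the gene was near the floor.

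A Wnt pathway list was read beside the members as a description, since it too was chosen with earlier results of these data known. It held 72 other genes (ligands, secretion factors, receptors, antagonists, intracellular factors and feedback targets). In mural endocardial-like cells 41 passed the filter, 3 were higher and 2 lower past the threshold (3.56% of all genes were past it). At an unadjusted p under 0.05 in edgeR's test 5 were higher and 9 lower, and 2727 of 13038 genes in all had such a p. The median log2 fold change was -0.11 against 0.00 over all genes. The receptor gene Fzd2 rose from 5.93 and 6.61 CPM to 13.4 and 12.5 CPM (1.10, SE 0.22, adjusted p = 0.0158), while the receptor genes Fzd4 and Lrp5 fell. Fzd4, a Frizzled of vascular endothelium, was at 55.3 and 57.9 CPM against 33.6 and 36.4 CPM (-0.64, SE 0.14, adjusted p = 0.0284), and Lrp5, a co-receptor, at 48.8 and 55.6 CPM against 30.9 and 31.8 CPM (-0.68, SE 0.15, adjusted p = 0.0250).

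Sost, which encodes the Wnt antagonist sclerostin, rose in mural endocardial-like cells from 6.05 and 8.76 CPM to 12.5 and 17.4 CPM (log2 fold change 1.09, SE 0.25, adjusted p = 0.0344). It also rose in coronary endothelial-like cells, from 4.42 and 6.45 CPM to 11.4 and 15.3 CPM (1.44, SE 0.30, adjusted p = 0.0362), the 1 gene of 28 list genes past the threshold there, where 0.915% of all genes were. The ligand gene Wnt16 passed the low-count filter in mural endocardial-like cells with the help of its higher Ets1 eKO levels. Its call, counted above, is thus given as a description. It rose in mural endocardial-like cells from 1.66 and 1.08 CPM to 3.64 and 4.41 CPM (1.58, SE 0.40, adjusted p = 0.0476). The summed level of 12 fibroblast genes in these cells was 620 and 514 CPM in controls against 1127 and 1082 CPM in Ets1 eKO, and its part in the rise of Fzd2 and Wnt16, both highest in cushion mesenchyme-like cells, was not tested. None of these list genes was past the threshold in mural or coronary cells with DESeq2. In mural endocardial-like cells 0 were past it without control replicate 1 and 1 without control replicate 2, and in coronary endothelial-like cells Sost missed it without control replicate 1 or Ets1 eKO replicate 2.

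In valve endocardial-like cells 0 of 30 list genes were past the threshold, with 6 at an unadjusted p under 0.05 in edgeR's test, as had 750 of 7718 genes in all. Wnt16 there was at 24.1 and 17.0 CPM in controls against 50.8 and 103 CPM in Ets1 eKO (adjusted p = 0.0656), and Wnt9b, a ligand of the endocardium over the cushions, at 18.6 and 10.2 CPM against 75.4 and 30.9 CPM (adjusted p = 0.0945), both higher in Ets1 eKO without overlap, as were 16.9% of all genes of the class. Wnt16 and Wnt9b each had a control level near or below the low-count filter, so their values are given as a description. The receptor gene Ror1 was at 150 and 144 CPM against 72.1 and 77.2 CPM (adjusted p = 0.0977).

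In cushion mesenchyme-like cells 0 of 50 list genes were past the threshold in edgeR's test, with 5 higher and 10 lower at an unadjusted p under 0.05 and a median of -0.06 against 0.01 over all genes, of which 1502 of 13152 had such a p. The smallest p-values belonged to the receptor gene Fzd1, at 29.7 and 42.1 CPM in controls against 15.2 and 22.9 CPM in Ets1 eKO (adjusted p = 0.187), and to Tcf7l1, a TCF factor that mainly represses, at 170 and 194 CPM against 120 and 128 CPM (adjusted p = 0.187). Wnt16 was at 52.2 and 26.9 CPM against 73.9 and 71.8 CPM, Rnf43, which removes Frizzled receptors from the membrane, at 9.25 and 6.26 CPM against 14.6 and 13.0 CPM, and the antagonist gene Wif1 at 5.52 and 4.56 CPM against 1.83 and 2.22 CPM. None of these groups overlapped, and the adjusted p-values of the last 3 were 0.205, 0.209 and 0.263. The shares of all genes of this class that stood apart in each direction are those given above for the members.

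In cardiomyocyte-like cells 0 of 51 list genes were past the threshold in edgeR's test, with 0 higher and 6 lower at an unadjusted p under 0.05 and a median of -0.14 against 0.01 over all genes, of which 1994 of 15978 had such a p. Tcf7l1 was at 21.2 and 24.5 CPM in controls against 14.7 and 13.7 CPM in Ets1 eKO (adjusted p = 0.389). The noncanonical receptor genes Ror2 and Ror1 were at 123 and 139 CPM against 95.5 and 88.2 CPM and at 258 and 278 CPM against 197 and 168 CPM (adjusted p = 0.398 for both). Lgr4, an R-spondin receptor, was at 76.6 and 74.3 CPM against 57.2 and 55.2 CPM, and Znrf3, a ligase that R-spondins hold back, at 73.2 and 79.5 CPM against 59.0 and 55.4 CPM. Each of these 5 genes was lower in both Ets1 eKO libraries without passing the threshold, and in this class 38.3% of all genes were lower without overlap. Both were read on CPM scaled by total UMIs alone, which leaned to the lower side in this class.

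Tcf7l1 was also among the 5 list genes with the smallest p in Tcf21-type fibroblast-like cells, at 225 and 249 CPM in controls against 145 and 132 CPM in Ets1 eKO (adjusted p = 0.495), and in epicardial-like, vessel wall-like and trabecular cells. In edgeR's test 0 of 42 list genes were past the threshold in Tcf21-type fibroblast-like cells, 0 of 28 in vessel wall-like, 0 of 38 in epicardial-like and 0 of 15 in immune-like cells, with 4, 6, 4 and 0 at an unadjusted p under 0.05. Over all genes 786 of 11878, 511 of 8648, 642 of 9954 and 434 of 8681 had such a p in these classes.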

How the data were processed

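The study dissociated E14.5 ventricles with trypsin and made 10x Genomics 3′ libraries. The authors deposited raw UMI counts per gene and cell barcode, made with Cell Ranger 7.1.0 per the labels, whose processing notes also name Seurat 4.3.0. All values here were computed from these counts. No correction for ambient RNA (RNA from outside the cell) was made, for which the study used CellBender. The cell filter asked for 200 to 7000 genes and allowed mitochondrial, ribosomal and haemoglobin UMIs of up to 20%, 35% and 2%, and doublets scored against simulated ones were removed at 0.8% per 1000 cells. Cells of at least 2000 UMIs were gated on marker lists (score of at least 0.25, margin 0.1), UMIs were summed per library and class, and sums were tested with edgeR 4.0.16 (TMM, quasi-likelihood, low-count filter, Benjamini-Hochberg at 0.05, n = 2 pools per group) in R 4.3.3. Differences between class effects were tested as an interaction term. Differences between classes and within a class rest on gates rebuilt here, since no cell annotation was used. For shares of cells with a UMI each cell was first thinned to 2000 UMIs, and intervals are exact binomial at 95%.

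Total UMIs of a class set the precision: cushion mesenchyme-like sums held 3146911 to 7669768 UMIs per library and valve endocardial-like sums 388817 to 610403. Replicates are separate pools of embryos, and all 4 libraries carry the same batch label. A lower sum may mean fewer cells that make a gene or less RNA per cell, which sums cannot tell apart.

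The members and gene lists were chosen with earlier results of these data known. All 10 members, Ets1, list genes past the threshold in an endothelial class, up to 5 list genes with the smallest p in every other class, and the 3 genes most correlated with each member were named. An item withheld from this text is not reported here. The split of the cushion class, the combined endothelial class, the atrial-list class, the cluster shares (of UMIs) held at control means, the crossed pairing and the test with no UMI minimum were added after the data had been seen, as were the named leading genes of clusters. Alternatives were DESeq2 1.42.0, scaling by library totals, no low-count filter, a replicate block, classes from clusters, a stricter margin of 0.2, stricter cells, no doublet removal and each library left out. The test scripts were first tested on simulated data. Gene positions are from GENCODE vM21 on GRCm38 and promoter windows from RefSeq on GRCm38.p6, where 6 of the 10 members had a window. Wnt5a, Rspo3, Sfrp1 and Dkk3 did not.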

Additional observations from a re-analysis of the deposited data

Results flagged for a closer look

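The effect of Ets1 eKO on Dkk2, a Wnt antagonist gene of the pathway list, differed between mural endocardial-like and coronary endothelial-like cells by -1.97 on the log2 scale (SE 0.38, adjusted p = 0.00136 in edgeR's interaction test). In mural endocardial-like cells it was at 5.22 and 3.69 CPM in controls against 1.69 and 1.39 CPM in Ets1 eKO, lower in both libraries (adjusted p = 0.0505). In coronary endothelial-like cells it was at 16.2 and 15.1 CPM against 19.9 and 21.8 CPM, higher in both (adjusted p = 0.333). It was the 1 gene past the threshold of 39 list genes tested for this difference, with 3 at an unadjusted p under 0.05, and 2.32% of all genes were past it. With classes taken from clusters the difference turned to 0.93 (SE 0.69, adjusted p = 0.620). With a library left out it was -2.20 to -1.76, and missed the threshold at -1.76 without control replicate 1 (adjusted p = 0.0595).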

How the results depend on the processing

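With 2 libraries per group, 403 alternative values of 35 results were computed: 335 kept direction and side of the threshold, 16 lost a call or part of a count, 37 gained one and 15 reversed. Sfrp2 in cushion mesenchyme-like cells kept its direction under every alternative for the whole class but missed the threshold without either Ets1 eKO library. Within its clusters it was 0.16 in A, -0.64 in B, short of the threshold, and -2.78 in C. Other values turned direction. Wnt5a in epicardial-like cells was 0.0124 with doublets kept and -0.27 to 0.19 with a library left out, and Wnt11 in mural endocardial-like cells -0.0053 with library totals and -0.11 to 0.21. Rspo3 ranged from -0.34 to 0.21 in cushion mesenchyme-like cells, and in AV canal cardiomyocytes was -0.71 from clusters and -0.0621 with doublets kept. Sfrp2 ranged from -1.0032 to 0.0042 in Tcf21-type fibroblast-like and -4.05 to 0.88 in vessel wall-like cells. The mural minus valve difference for Wnt4 was 0.51 from clusters, against -0.53, and the mural minus coronary difference for Dkk2 0.93 from clusters, against -1.97. The cause was not tested.

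Ets1 in valve endocardial-like cells missed the threshold at -1.11 with DESeq2, -1.10 with the replicate block, -1.04 with the stricter margin, -1.13 with doublets kept, -1.12 with stricter cells and -1.13 with no UMI minimum. With a library left out it was -1.17 to -1.03, and missed the threshold without control replicate 2 or Ets1 eKO replicate 2. In cushion mesenchyme-like cells it passed at -0.80 with DESeq2, -0.87 with library totals, -0.81 with no filter and -0.80 with the replicate block. With a library left out it was -0.89 to -0.69, and passed without either control library but not without either Ets1 eKO library.

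Members past the threshold numbered 3 in cardiomyocyte-like, 1 in mural, 2 in valve endocardial-like, 4 in cushion mesenchyme-like, 1 in vessel wall-like and 1 in epicardial-like cells with no filter, 1 in cardiomyocyte-like cells with DESeq2, and 1 in mural and 1 in valve endocardial cells from clusters. With a library left out, the members past it ranged from 0 to 2 in cardiomyocyte-like, valve endocardial-like and cushion mesenchyme-like cells and from 0 to 1 in mural endocardial-like, Tcf21-type fibroblast-like, vessel wall-like and epicardial-like cells. Between coronary and valve endocardial-like cells the range was 0 to 1, in a test that no member entered through both classes.

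List genes past the threshold numbered 2 in cardiomyocyte-like cells with no filter (0 to 3 with a library left out). In mural endocardial-like cells they numbered 0 with DESeq2, 3 from clusters, 3 with the stricter margin, 3 with doublets kept and 0 to 7 with a library left out. In valve endocardial-like cells they numbered 4 with no filter, 1 from clusters and 1 to 3 with a library left out. In coronary endothelial-like cells they numbered 0 with DESeq2, 2 with library totals, 2 with no filter, 0 with the stricter margin and 1 to 2 with a library left out. In Tcf21-type fibroblast-like, cushion mesenchyme-like and vessel wall-like cells they numbered 1, 7 and 1 with no filter, and 0 to 5 and 0 to 2 in the last pair with a library left out.

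Over all genes, those higher and lower with no filter numbered 134 and 237 of 23946 in cardiomyocyte-like, 647 and 475 of 20967 in mural, 112 and 69 of 16140 in valve endocardial-like, 171 and 171 of 19134 in coronary endothelial-like, 32 and 69 of 19952 in Tcf21-type fibroblast-like, 176 and 366 of 21244 in cushion mesenchyme-like, 13 and 61 of 17145 in vessel wall-like and 15 and 26 of 18089 in epicardial-like cells. Leaving out a library gave from 11 and 9 to 1092 and 489 in cardiomyocyte-like, 98 and 62 to 950 and 563 in mural, 48 and 21 to 81 and 63 in valve endocardial-like, 91 and 49 to 537 and 334 in coronary endothelial-like, 0 and 0 to 11 and 31 in Tcf21-type fibroblast-like, 1 and 1 to 149 and 210 in cushion mesenchyme-like, 0 and 0 to 13 and 105 in vessel wall-like and 0 and 0 to 15 and 36 in epicardial-like cells. DESeq2 gave 10 and 30 in cardiomyocyte-like, 168 and 167 in mural endocardial-like and 35 and 20 in coronary endothelial-like cells, and library totals 64 and 84 in the last. Clusters gave 231 and 261 in mural and 35 and 39 in valve endocardial cells, the stricter margin 200 and 220 in mural endocardial-like and 59 and 29 in coronary endothelial-like cells, and doublets kept 157 and 176 in mural endocardial-like cells.

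With the replicate number as a block, the members past the threshold numbered 2 in cardiomyocyte-like (54 genes higher and 103 lower), 1 in mural endocardial-like (555 and 509), 1 in vessel wall-like (7 and 16) and 1 in epicardial-like cells (8 and 19), and list genes 2 in valve endocardial-like (24 and 12), 2 in coronary endothelial-like (142 and 103) and 2 in cushion mesenchyme-like cells (84 and 160). The labels do not say that the numbers pair libraries, and same-numbered deviations correlated at -0.125 to 0.039 over classes. With crossed numbers as the block, computed for all 9 classes, 4 genes were higher and 10 lower in vessel wall-like and 3 and 0 in immune-like cells, the classes where this correlation was under -0.1. In the other classes the counts ran from 3 and 3 in Tcf21-type fibroblast-like to 626 and 599 in mural endocardial-like cells, which had 215 and 249 without a block.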

Other observations

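Genes whose levels followed a member most closely over 36 sums of 9 classes in 4 libraries were found among 11330 genes, as a description of sums that share libraries and depth. For Rspo1 they were Bnc1 (Pearson r 0.973), Gm29266 and Apela, and for Sfrp2 Cntn4 (0.952), Fibin and Olfml1. For Wnt4 they were Pthlh (0.934), Ahsg and Fam155a, and for Wnt2 Prrt4 (0.919), Nrxn3 and Prr15. For Wnt5a they were Smarca1 (0.958), Rab34 and Kif6, and for Wnt11 Sertad4 (0.910), Gramd1c and Foxp4. For Rspo3 they were Erbb4 (0.898), Cacna1g and Tnfrsf19, and for Sfrp1 Cdh2 (0.965), Dzip1l and Ddr1. For Dkk3 they were Htra1 (0.933), Pak7 and Syt11, and for Axin2 Lef1 (0.908), itself a factor of the pathway, and Kcnq3.

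Among other ligands of the list, Wnt5b (141 CPM, SD 18.8) and the R-spondin gene Rspo2 were highest in epicardial-like cells. Wnt9b was highest in valve endocardial-like cells, and Wls, which carries Wnt ligands to the membrane, in mural endocardial-like cells (236 CPM, SD 19.0).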
